A study of Mus musculus with 8 samples.

Results

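The genes described here are the ligands and receptors of the tumor necrosis factor (TNF) superfamily that carry the systematic symbols Tnfsf or Tnfrsf followed by a number. The rule found 29 members among the 27179 genes of the deposited table, namely 10 ligands, 18 receptors and 1 antisense transcript, after 3 further symbols had been left out. Of these members, 17 passed the filter on low values, which asked for at least 1 CPM (read count scaled to library size) in at least 4 of the 8 tumors. They comprised 4 ligands and 13 receptors. The remaining 12 members stayed below the filter.

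The ligands of this superfamily are mostly trimeric proteins of the cell surface that can also be shed, and each binds 1 or a few receptors with cysteine-rich extracellular domains. Receptors with an intracellular death domain can assemble caspase-activating complexes, the others recruit TRAF adaptors and turn on NF-kB and kinase signaling, and decoy receptors bind a ligand without passing on a signal. In tumors the family is best known for death receptors on cancer cells, for costimulatory receptors on T cells and for BAFF and APRIL, the survival factors of the B lineage. Osteoprotegerin and RANK ligand are the members that set osteoclast formation in bone.

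RNA sequencing was performed on 8 subcutaneous tumors grown in adult male CD2F1 mice that were kept until cachexia developed, with 4 tumors in each group and 1 library per tumor. C26 is a colon carcinoma line from Balb/c mice, and cxC26 is its cachectic form. The cxC26 scr tumors came from cells with intact Il6 that carried a scrambled guide RNA in lentiCRISPRv2, and the cxC26 IL6KOs1 tumors came from 1 subclone in which Il6 had been disrupted by CRISPR/Cas9, so that both groups share the Cas9 vector and puromycin selection. For the knockout cells the study inoculated more cells and waited longer until the terminal point, and cell number, tumor age and the choice of a single clone cannot be told apart from the loss of Il6. The hosts were not modified, and reads from host cells are included.

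Between 14158989 and 17048062 reads per tumor were assigned to genes, and 3 reads, the upper limit that a count of 0 allows for counting error alone, correspond to between 0.180 and 0.217 CPM. Il6 reads numbered 326 to 438 with the scrambled guide and 56 to 86 in the knockout. Of 7 intestinal epithelial markers 4 were tested, with 2 higher and 1 lower in cxC26 IL6KOs1. Krt20 had 17390 to 22185 reads in every tumor. Krt18 rose from 21 to 30 reads to 140 to 282, Cdh1 rose from 17 to 37 reads to 45 to 87, and Cdx2 fell from 17 to 34 reads to 0 or 1. Epcam with 0 to 14, Krt8 with 3 to 15 and Vil1 with 0 to 3 reads were below the filter and close to absent in both groups. All 8 tested macrophage and monocyte markers were higher in cxC26 IL6KOs1 tumors, with a summed level of 431 to 606 CPM in cxC26 scr and 879 to 1347 CPM in cxC26 IL6KOs1. Among them Ly6c2, with 18, 15, 8 and 7 reads in cxC26 scr, passed the filter only with the help of the cxC26 IL6KOs1 tumors. Of 7 T cell markers, 4 were tested and all 4 were higher. Cd3g, Cd8a and Cd8b1 passed the filter only through the cxC26 IL6KOs1 tumors, with at most 7 reads in any cxC26 scr tumor. A marker this scarce in cxC26 scr could be tested only if it was higher in cxC26 IL6KOs1. Cd4, with 24, 22, 8 and 14 reads in cxC26 scr, also passed the filter only with the help of the cxC26 IL6KOs1 tumors. The summed level of all 7 T cell markers was 0.843 to 3.27 CPM against 8.88 to 17.1 CPM. Of 6 B cell markers, 1 was tested and none was called, at a summed 1.38 to 2.39 CPM against 2.02 to 8.92 CPM. All 5 tested mast cell markers were higher, at a summed 8.43 to 12.8 CPM against 21.8 to 110 CPM, with IL6KOs1-1 the lowest of its group. Cpa3 and Hdc, with 13 to 23 and 13 to 33 reads in cxC26 scr, passed the filter only with the help of the cxC26 IL6KOs1 tumors. Fcer1a was below the filter. Of 6 fibroblast markers, Lum was higher, Pdgfra and Pdgfrb were lower at log2 fold changes of -0.78 and -0.77, and the summed levels overlapped, at 3797 to 5678 CPM against 3244 to 4792 CPM. Of the 5 endothelial markers tested, none was called. Of the tested markers, 1 of 3 for plasma cells was higher and 1 lower, and 1 of 2 for NK cells and 1 of 3 for neutrophils were higher. Here too Jchain and Klrd1, the higher plasma and NK cell markers, passed the filter only through the cxC26 IL6KOs1 tumors. Of 6 dendritic cell markers only Zbtb46 was tested, and it was lower. The others, Flt3, Xcr1, Clec9a, Ccr7 and Cd209a, were below the filter. They had 29, 13, 26, 33 and 62 reads in the cxC26 scr group against 64, 42, 37, 110 and 83 in cxC26 IL6KOs1. The part of any of these cell types in the differences between members was not tested. The tumor IL6KOs1-1 stood apart in the members. It was the highest of its group in 13 of the 17 tested members, or 76.5%, compared with 28.0% of all tested genes, and it also held the highest summed macrophage and T cell levels.

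The comparison of cxC26 scr with cxC26 IL6KOs1 tumors asks how the tumor transcriptome differs when the cancer cells cannot make IL-6. Across all 13262 tested genes 19.1% were higher and 20.7% were lower in cxC26 IL6KOs1 at an adjusted p-value below 0.05 (limma with Benjamini-Hochberg adjustment), together 39.8%. Against this background 5 of the 17 tested members were higher and 5 were lower, 29.4% in each direction, and 7 did not pass the test. Without IL6KOs1-1, 3 members were higher and 5 lower, and the calls of Tnfrsf18 and Tnfrsf21 were lost. Over the tested members the median log2 fold change was 0.01, close to the 0.00 of all tested genes. The groups did not overlap in 7 of the 17 tested members, or 41.2%, compared with 37.1% of all tested genes. The family as a whole thus held calls in both directions in equal number, and its share of non-overlapping genes was near the background. The median hides where the calls lie. The 5 members that fell, the ligand Tnfsf9 and the receptors Tnfrsf11b, Tnfrsf22, Tnfrsf23 and Tnfrsf26, all had at least 704 reads in every cxC26 scr tumor. Of the 5 that rose, 4 had at most 99 reads in every cxC26 scr tumor, and Tnfrsf1b was the exception. Among these, Tnfsf13b and Tnfrsf18 passed the filter only with the help of the cxC26 IL6KOs1 tumors. Their cxC26 scr values were 0.599, 0.803, 0.914 and 1.56 CPM for Tnfsf13b and 0.539, 1.17, 0.843 and 0.455 CPM for Tnfrsf18. A member this scarce in cxC26 scr would not have been tested had it fallen. In bulk tumors, fewer cells of a type and less RNA per cell cannot be told apart, and this holds for every difference that follows.

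**Figure D1:**
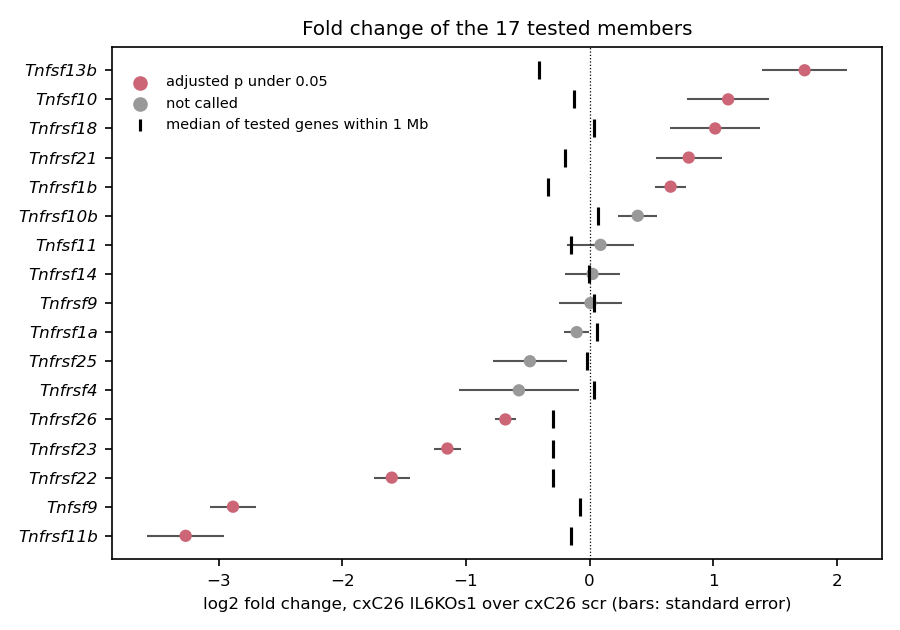
Log2 fold change of the 17 tested members, cxC26 IL6KOs1 over cxC26 scr, with standard errors from limma. Colored points passed an adjusted p-value of 0.05, gray points did not, and the black ticks give the median of the other tested genes within 1 Mb, which lies between -0.41 and 0.07.

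Tnfrsf11b, which encodes the secreted decoy receptor osteoprotegerin, had the largest fold change of the family. The cxC26 scr tumors held 1576, 2146, 1978 and 1366 of its reads, and the cxC26 IL6KOs1 tumors held 101, 141, 195 and 328. Every cxC26 scr tumor lay above every cxC26 IL6KOs1 tumor. The mean fell from 114 ± 25.8 CPM to 12.9 ± 7.01 CPM (SD, n = 4 per group), a log2 fold change of -3.27 with a standard error of 0.31 (limma, adjusted p = 1.88e-05). Tnfrsf11b lies on chromosome 15 (GRCm38, chr15:54250619-54278484), and the 6 other tested genes within 1 Mb had a median log2 fold change of -0.15. Of 6 fibroblast markers, Pdgfra and Pdgfrb were also lower in the knockout tumors, by less. Lum was higher, and Col1a1, Col1a2 and Dcn were not called. The part of fibroblasts in the fall was not tested.

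Tnfsf11, the gene for RANK ligand, whose activity osteoprotegerin blocks, showed no such change. It had 62, 50, 37 and 34 reads in cxC26 scr and 65, 26, 57 and 45 reads in cxC26 IL6KOs1, and the groups overlapped over most of their range. The log2 fold change was 0.09 with a standard error of 0.27 (limma, adjusted p = 0.821). Per kilobase of transcript, Tnfrsf11b stood at 20.2, 34.1, 42.4 and 31.9 times the level of Tnfsf11 in the cxC26 scr tumors and at 1.23, 4.30, 2.71 and 5.78 times in the cxC26 IL6KOs1 tumors. In all 8 tumors the decoy was thus the more abundant transcript, but by a margin that did not overlap between the groups.

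Tnfsf9, which encodes 4-1BB ligand, a costimulatory ligand for activated T cells, was the most abundant ligand of the family in every tumor. It had 1423, 1251, 1122 and 1131 reads in cxC26 scr and 260, 154, 144 and 113 reads in cxC26 IL6KOs1. The groups were far apart, and IL6KOs1-1 was the highest of the knockout tumors. The level per kilobase of transcript (RPKM, which is CPM divided by transcript length) fell from 61.0 ± 3.81 to 8.54 ± 2.79, and the log2 fold change was -2.89 with a standard error of 0.18 (limma, adjusted p = 1.3e-06). The gene lies on chromosome 17 (chr17:57105287-57107758) and overlaps 1 other annotated gene. The 37 tested genes within 1 Mb had a median log2 fold change of -0.08.

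Its receptor, Tnfrsf9 or 4-1BB, did not pass the test. Tnfrsf9 had 680, 729, 552 and 822 reads in cxC26 scr and 1143, 830, 536 and 392 reads in cxC26 IL6KOs1. The knockout tumors lay on both sides of the cxC26 scr range, and the mean RPKM was 21.0 ± 3.07 in cxC26 scr and 22.6 ± 9.75 in cxC26 IL6KOs1. The log2 fold change was 0.01 with a standard error of 0.26 (limma, adjusted p = 0.985), and the spread was wider in the knockout group. The ratio of Tnfsf9 to Tnfrsf9 in RPKM went from 3.43, 2.81, 3.33 and 2.26 in cxC26 scr to 0.373, 0.304, 0.440 and 0.473 in cxC26 IL6KOs1. The ligand transcript was therefore above the receptor transcript in the 4 cxC26 scr tumors and below it in the 4 cxC26 IL6KOs1 tumors.

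**Figure D2:**
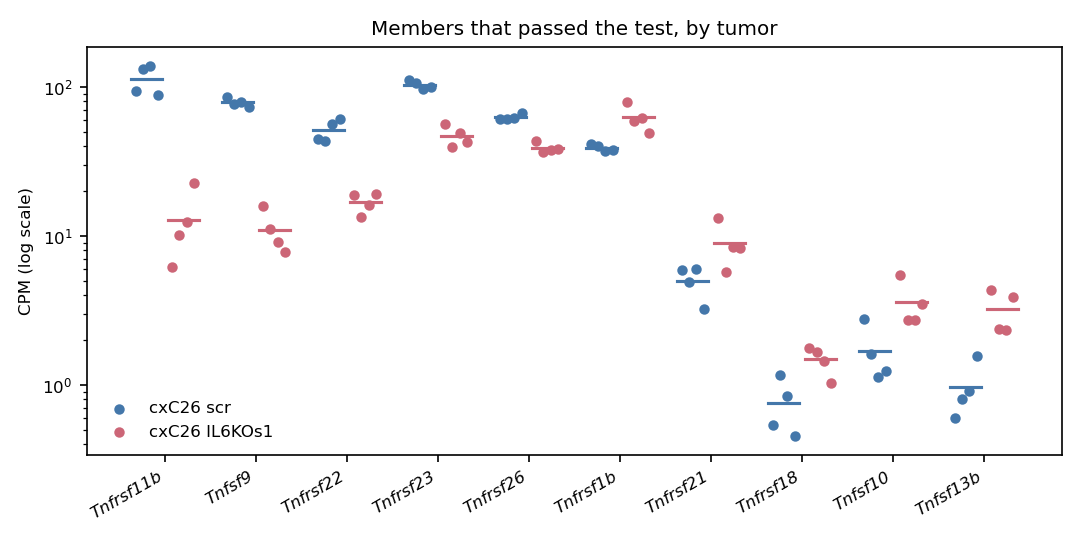
CPM on a log scale of the 10 members that passed the test, with 1 point per tumor in the order of the replicate numbers and a line at the mean of each group of 4. The groups do not overlap in the 5 genes at the left that fell, nor in Tnfrsf1b and Tnfsf13b.

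Mouse cells carry 1 signaling receptor for the death ligand TRAIL, Tnfrsf10b, and a pair of decoy receptors, Tnfrsf22 and Tnfrsf23, that bind TRAIL without a death domain. The decoys lie beside the related receptor gene Tnfrsf26 on chromosome 7, within 78.8 kb (GRCm38, chr7:143607685-143686436), and all 3 were lower in cxC26 IL6KOs1 tumors. Tnfrsf22 had 744, 704, 798 and 934 reads in cxC26 scr and 305, 186, 254 and 277 reads in cxC26 IL6KOs1. Its log2 fold change was -1.60 with a standard error of 0.15 (limma, adjusted p = 1.55e-05), which left 33.0% of the cxC26 scr level.

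Tnfrsf23 was the more abundant of the pair and had 1862, 1710, 1376 and 1534 reads in cxC26 scr. The 4 cxC26 IL6KOs1 tumors had 916, 546, 773 and 621 reads, again with no overlap. The log2 fold change was -1.15 with a standard error of 0.11 (limma, adjusted p = 2.2e-05), leaving 45.0% of the cxC26 scr level. Tnfrsf26 had 1018, 980, 883 and 1031 reads in cxC26 scr and 704, 510, 598 and 555 reads in cxC26 IL6KOs1. The groups did not overlap, and the change was smaller, at -0.68 with a standard error of 0.09 (limma, adjusted p = 0.000131).

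Tnfrsf22 and Tnfrsf23 are near-copies in part. Their GENCODE transcripts share an exact run of 306 bases, 17.3% of the 50-base words of Tnfrsf22 occur in Tnfrsf23, and 4.34% of its 150-base words do, 150 bases being the read length. How the reads from the shared stretch were split between the 2 genes is uncertain. Tnfrsf26 shares no word of 50 bases with either. The sum of Tnfrsf22 and Tnfrsf23 does not depend on how counted reads were split between them. Whether reads that match both genes were counted at all is not known. The sum was 2606, 2414, 2174 and 2468 reads in cxC26 scr and 1221, 732, 1027 and 898 reads in cxC26 IL6KOs1. In CPM it fell from 155 ± 4.78 to 63.8 ± 9.20, which left 41.2% of the cxC26 scr level (two-sided exact permutation test, p = 0.0286, the smallest p-value that 4 against 4 tumors allow).

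The surroundings of the cluster were lower too, by less and about as much as chromosome 7 as a whole. Of the 17 other tested genes within 1 Mb, 14 had a fold change below 0. The median of the 17 was -0.30 on the log2 scale, near the -0.27 of all tested genes on chromosome 7. Of the 17, 5 were called lower and 1 higher, compared with 20.7% and 19.1% of all tested genes. Only 1 of these neighbours lay below Tnfrsf26, at -0.83, and none lay below Tnfrsf22 or Tnfrsf23. The 3 receptors kept their calls when the median of their chromosome was subtracted.

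**Figure D3:**
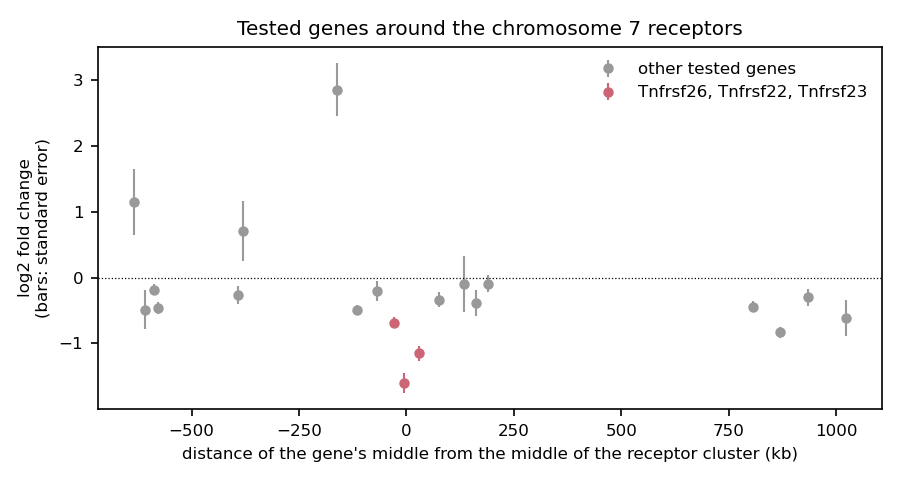
Log2 fold change, cxC26 IL6KOs1 over cxC26 scr, of the tested genes around the chromosome 7 receptors against their distance from the middle of the cluster in kb, with standard errors from limma. Tnfrsf22 and Tnfrsf23 lie below all 17 neighbours and Tnfrsf26 below all but 1.

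The signaling TRAIL receptor did not follow the cluster. Tnfrsf10b had 639, 669, 502 and 528 reads in cxC26 scr and 883, 905, 569 and 638 reads in cxC26 IL6KOs1, so that its knockout tumors lay within or above the cxC26 scr range. The log2 fold change was 0.39 with a standard error of 0.16 (limma, adjusted p = 0.0714), short of the threshold. Without IL6KOs1-3 the gene passed the threshold, at a log2 fold change of 0.53. It passed in no other fit with 1 tumor left out. Without IL6KOs1-2 the log2 fold change was 0.25 (limma, adjusted p = 0.188). Per kilobase, the summed decoy-type receptors Tnfrsf22 and Tnfrsf23 were 3.65, 3.23, 3.81 and 4.10 times Tnfrsf10b in the cxC26 scr tumors and 1.25, 0.729, 1.63 and 1.25 times in the cxC26 IL6KOs1 tumors.

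Tnfsf10, the gene for TRAIL itself, was low and rose. It had 46, 26, 16 and 19 reads in cxC26 scr and 89, 38, 43 and 51 reads in cxC26 IL6KOs1. The tumor scr-1 reached into the range of the knockout group, so the groups overlapped. The log2 fold change was 1.12 with a standard error of 0.33 (limma, adjusted p = 0.0185), and the exact permutation test of the mean CPM gave p = 0.0857. The call was lost without scr-3 and without scr-4, at fold changes of 0.96 and 1.01.

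**Figure D4:**
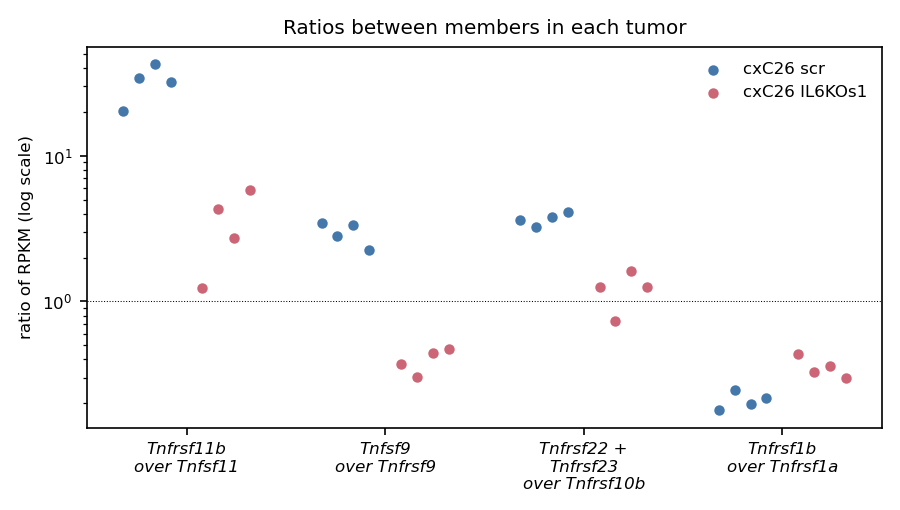
Ratio of RPKM between members in each tumor on a log scale, with 1 point per tumor in the order of the replicate numbers and a dotted line where both genes are equal. The cxC26 scr and cxC26 IL6KOs1 tumors do not overlap in any of the 4 ratios, and Tnfsf9 over Tnfrsf9 lies above 1 in cxC26 scr and below 1 in cxC26 IL6KOs1.

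Both receptors of TNF were well expressed, and 1 of them rose. Tnfrsf1a encodes TNFR1, the broadly expressed receptor with a death domain, and had the highest RPKM of all members in the knockout group. It had 2165, 1509, 1493 and 1517 reads in cxC26 scr and 1656, 1409, 1532 and 1347 reads in cxC26 IL6KOs1. Only scr-1 stood off from the other 7 tumors, and the log2 fold change was -0.10 with a standard error of 0.10 (limma, adjusted p = 0.445).

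Tnfrsf1b encodes TNFR2, which lacks a death domain and is found mainly on immune and endothelial cells. It had 686, 654, 525 and 583 reads in cxC26 scr and 1285, 822, 977 and 713 reads in cxC26 IL6KOs1. The groups did not overlap, IL6KOs1-1 was the highest, and the log2 fold change was 0.66 with a standard error of 0.13 (limma, adjusted p = 0.00192). The 5 other tested genes within 1 Mb had a median of -0.33. Relative to Tnfrsf1a, Tnfrsf1b stood at 0.179, 0.245, 0.199 and 0.217 in the cxC26 scr tumors and at 0.438, 0.329, 0.360 and 0.299 in the cxC26 IL6KOs1 tumors in RPKM. The summed macrophage markers and Tnfrsf1b were both higher in the knockout tumors and both highest in IL6KOs1-1. Single macrophage markers differed, as Mrc1 and Ccr2 were not highest in that tumor. In the order of the knockout tumors Mrc1 had 3334, 4134, 3382 and 3369 reads and Ccr2 1072, 728, 1193 and 1060. The summed mast cell markers were higher too but lowest in IL6KOs1-1. The part of either cell type in the rise of Tnfrsf1b was not tested.

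The TNF gene itself carries another symbol and belongs to a list of 7 ligands without systematic names. Tnf had 20, 19, 18 and 19 reads in cxC26 scr and 97, 40, 48 and 47 reads in cxC26 IL6KOs1, and the groups did not overlap. It rose by a log2 fold change of 1.55 with a standard error of 0.27 (limma, adjusted p = 0.000988). Ltb, which encodes the membrane partner of lymphotoxin, also rose, at 1.35 with a standard error of 0.30 (limma, adjusted p = 0.00442). These were the 2 genes of the list that passed the filter. Below the filter, Lta had 4 reads in the cxC26 scr group and 32 in the cxC26 IL6KOs1 group, Fasl 5 and 49, Eda 7 and 13, Cd40lg 0 and 1, and Cd70 1 and 0.

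Among the other death domain receptors, Tnfrsf21, or death receptor 6, was higher. It had 99, 80, 85 and 50 reads in cxC26 scr and 214, 80, 132 and 121 reads in cxC26 IL6KOs1, and IL6KOs1-2 lay inside the cxC26 scr range. The log2 fold change was 0.80 with a standard error of 0.26 (limma, adjusted p = 0.0314). Without IL6KOs1-1 it was 0.59 and no longer passed, and the call was also lost without IL6KOs1-3, IL6KOs1-4, scr-2 or scr-4. Tnfrsf25, or death receptor 3, had 23 to 48 reads in cxC26 scr and 17 to 33 in cxC26 IL6KOs1, with a log2 fold change of -0.48 and a standard error of 0.30 that did not pass the test (limma, adjusted p = 0.217).

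Tnfsf13b encodes BAFF, the survival factor of B cells, and is made mainly by myeloid cells. It was the member with the largest rise. It had 10, 13, 13 and 24 reads in cxC26 scr and 71, 33, 37 and 56 reads in cxC26 IL6KOs1, with no overlap. The mean went from 0.969 ± 0.415 CPM to 3.24 ± 1.03 CPM, a log2 fold change of 1.74 with a standard error of 0.34 (limma, adjusted p = 0.00206). The gene lies on chromosome 8 (chr8:10006229-10036000), where the 3 other tested genes within 1 Mb had a median of -0.41. As for Tnfrsf1b, the macrophage and mast cell markers moved in the same direction as Tnfsf13b, and their part in its rise was not tested.

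The related ligand and the receptors of this axis were below the filter. Tnfsf13, or APRIL, had 10 to 23 reads in cxC26 scr and 8 to 31 in cxC26 IL6KOs1. Tnfrsf13b, or TACI, had 6, 8, 11 and 4 reads in cxC26 scr and 25, 8, 18 and 21 reads in cxC26 IL6KOs1. It was the 1 member below the filter with an unadjusted p-value below 0.05 when all genes were fitted, and its adjusted p-value in that fit was 0.145 (limma), with p = 0.0571 in the exact permutation test of the mean CPM. Tnfrsf17, or BCMA, the receptor of plasma cells, had 7 to 9 reads and 8 to 13 reads in the respective groups. Tnfrsf13c, the BAFF receptor of mature B cells, had 1, 2, 0 and 0 reads in cxC26 scr and 8, 2, 4 and 0 reads in cxC26 IL6KOs1. The antisense transcript Tnfsf13os had 5 to 13 and 6 to 13 reads, and it overlaps 4 annotated genes. The library kit does not mark strand, so reads from these genes cannot be assigned to a strand.

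The costimulatory receptors of T cells were scarce, apart from Tnfrsf9 and Tnfrsf14. Tnfrsf18 encodes GITR, which is carried by regulatory and activated T cells. It had 9, 19, 12 and 7 reads in cxC26 scr and 29, 23, 23 and 15 reads in cxC26 IL6KOs1. In CPM, IL6KOs1-4 lay below scr-2, so the groups overlapped slightly. Its log2 fold change was 1.02 with a standard error of 0.37 (limma, adjusted p = 0.0445), and the call was lost without any 1 of 6 tumors, namely IL6KOs1-1, IL6KOs1-2, IL6KOs1-3, scr-1, scr-3 and scr-4. T cell markers rose in the same tumors, while of 4 regulatory T cell markers 2 were tested, with 1 lower and 0 higher. Their part was not tested.

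Tnfrsf4, or OX40, had 14 to 37 reads in cxC26 scr and 5 to 34 in cxC26 IL6KOs1. Its log2 fold change was -0.57 with a standard error of 0.48, which did not pass the test (limma, adjusted p = 0.371). Tnfrsf14, or HVEM, a receptor with both stimulating and inhibiting partners, had 161, 141, 173 and 159 reads in cxC26 scr and 278, 118, 151 and 117 reads in cxC26 IL6KOs1. IL6KOs1-1 lay above all other tumors and the remaining knockout tumors within or below the cxC26 scr range, and the log2 fold change was 0.02 with a standard error of 0.22 (limma, adjusted p = 0.944).

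The remaining 7 members stayed below the filter, and none of their groups was separated. Tnfsf14, or LIGHT, the ligand of HVEM, had 7 to 23 reads in cxC26 scr and 12 to 22 in cxC26 IL6KOs1. Tnfsf8 and its receptor Tnfrsf8, or CD30, had at most 12 and 6 reads in any tumor. Tnfsf4 and Tnfsf18, the ligands of OX40 and GITR, had at most 12 and 11 reads. Tnfsf15, or TL1A, the ligand of death receptor 3, had 0 to 3 reads in cxC26 scr and 17, 1, 2 and 4 reads in cxC26 IL6KOs1, where a single tumor held most of the reads. Tnfrsf19, or TROY, had at most 3 reads. Over all 12 members below the filter, reads ranged from 0 to 31 per tumor, 0 passed an adjusted p-value of 0.05 in the fit of all genes (limma), and 1, Tnfrsf13b, passed an unadjusted 0.05. At this depth a difference in these genes was hardly detectable.

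The per-length levels show how the makeup of the family shifted. The summed RPKM of the 4 tested ligands was 68.4, 61.8, 62.7 and 58.5 in cxC26 scr and 16.2, 10.5, 9.73 and 8.95 in cxC26 IL6KOs1. Tnfsf9 made up 97.1% ± 0.401 of this sum in cxC26 scr and 74.7% ± 6.11 in cxC26 IL6KOs1 (SD, n = 4). The order in cxC26 scr was Tnfsf9 at 61.0, Tnfsf11 at 1.30, Tnfsf10 at 0.337 and Tnfsf13b at 0.203 RPKM. In cxC26 IL6KOs1 it was Tnfsf9 at 8.54, Tnfsf11 at 1.41, Tnfsf10 at 0.724 and Tnfsf13b at 0.679 RPKM. In both groups the last 2 differed by less than their spread.

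The 13 tested receptors summed to 212, 210, 214 and 202 RPKM in cxC26 scr and to 178, 153, 138 and 133 RPKM in cxC26 IL6KOs1. In cxC26 scr the sum was led by Tnfrsf1a at 49.5 ± 7.49, Tnfrsf11b at 40.3 ± 9.14 and Tnfrsf23 at 30.8 ± 1.97 RPKM. Neighbours in this order overlapped within 1 SD. In cxC26 IL6KOs1 the order was Tnfrsf1a at 45.7 ± 1.97, Tnfrsf9 at 22.6 ± 9.75, Tnfrsf1b at 16.3 ± 3.25 and Tnfrsf10b at 15.7 ± 3.99 RPKM, where the last 3 did not differ beyond their spread. The share of Tnfrsf11b in the receptor sum went from 19.2% ± 4.06 to 3.21% ± 2.06, and that of Tnfrsf1b from 4.89% ± 0.256 to 10.8% ± 1.04. Shares within a sum depend on each other, and these values are given as a description.

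**Figure D5:**
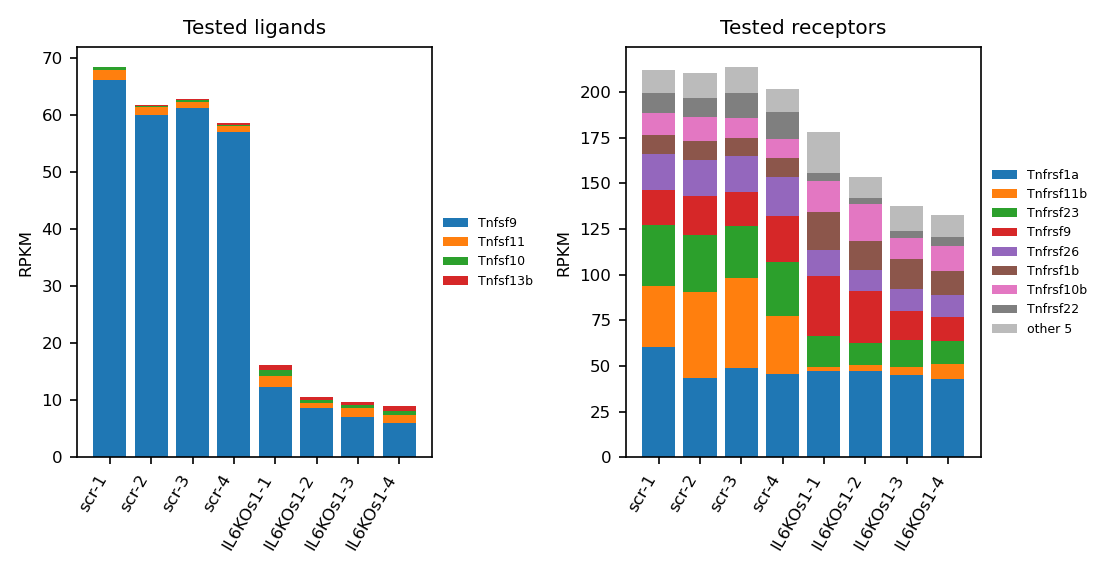
Stacked RPKM of the 4 tested ligands and the 13 tested receptors in each of the 8 tumors, linear axes from 0. Tnfsf9 and Tnfrsf11b account for most of the lower totals in the cxC26 IL6KOs1 tumors, and IL6KOs1-1 has the highest totals of its group.

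The genes around the family were taken from 6 lists of 41 genes, of which 33 were tested, 5 were higher and 4 were lower. These are 15.2% and 12.1% of the tested list genes, below the 19.1% and 20.7% of all tested genes. Of 8 receptors of the superfamily under other symbols, 5 were tested, 0 were higher and 2 were lower. Fas, the death receptor for Fas ligand, had 124, 143, 127 and 73 reads in cxC26 scr and 99, 40, 46 and 57 reads in cxC26 IL6KOs1, a log2 fold change of -0.94 (limma, adjusted p = 0.019). Eda2r, a receptor of the ectodysplasin system, had 1050 to 1274 reads in cxC26 scr and 468 to 771 in cxC26 IL6KOs1, at -0.93 (limma, adjusted p = 0.00125). Cd40, the receptor of antigen-presenting cells, had 18, 34, 3 and 8 reads in cxC26 scr and 135, 18, 16 and 25 reads in cxC26 IL6KOs1. A single tumor carried its mean, and it did not pass the test (limma, adjusted p = 0.122). Edar had 0 reads in all 8 tumors.

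Inside the cell the machinery changed in few genes. Of the 26 genes of the adaptor, death domain, ubiquitin ligase and feedback lists, all tested, 3 were higher and 2 were lower, that is 11.5% and 7.69%, compared with 19.1% and 20.7% of all tested genes. Among 6 TRAF adaptors Traf4 fell, with a log2 fold change of -1.03 (limma, adjusted p = 0.000144). Traf2 and Traf3, adaptors that restrain the alternative NF-kB pathway, had fold changes of -0.02 and 0.03 and did not pass the test. Among 8 death domain adaptors and effectors Cflar, the inhibitor of caspase-8 activation, fell by 0.28 on the log2 scale (limma, adjusted p = 0.0192), and Fadd and Tradd stood at -0.30 and 0.19 without passing. None of the 7 ubiquitin ligase and alternative kinase genes was called. Of 5 feedback genes 3 rose, namely Tnip1 by 0.60, Cyld by 0.34 and Otulin by 0.28 on the log2 scale (limma, adjusted p = 0.0223, 0.0101 and 0.0232). The NF-kB target and inhibitor Tnfaip3 was not called, at -0.30 (limma, adjusted p = 0.228).

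Promoter sequences, from 250 bases before to 50 bases after an annotated start, were found for 22 of the 29 members in RefSeq (GRCm38.p6), with 26 starts in all. No entry was found for Tnfsf9, Tnfrsf11b, Tnfrsf22, Tnfrsf26, Tnfrsf10b, Tnfsf4 and Tnfsf13os. They were searched on both strands for the STAT-binding GAS motif TTCNNNGAA, for the interferon response core GAAANNGAA and for the NF-kB consensus. These motifs occur in 8.29%, 8.55% and 4.50% of all 32817 promoters. These shares count single promoters, while a member with more than 1 start is counted below if any of its promoters held a match. The shares and the member counts are therefore not on the same scale. A GAS match was found in 6 members, 5 of them tested, an interferon core in 6 members, 4 of them tested, and an NF-kB match in 2 members, 1 of them tested, which was Tnfrsf9. Promoters are shown for members that were called higher and held a match, a choice made by their outcome. Of the 5 members called higher, Tnfrsf1b, Tnfrsf18 and Tnfsf13b held a match, and Tnfrsf21 and Tnfsf10 held none. The sequences below run 5′ to 3′ on the strand of the gene and end at the base before its start, or at 30 bases around the match for Tnfsf13b. Capitals mark the matches, a GAS motif in Tnfrsf18, a GAS motif followed by an interferon core on the opposite strand in Tnfrsf1b, and an interferon core in Tnfsf13b.
Tnfrsf1b, chr4:145246871-145247120, minus strand: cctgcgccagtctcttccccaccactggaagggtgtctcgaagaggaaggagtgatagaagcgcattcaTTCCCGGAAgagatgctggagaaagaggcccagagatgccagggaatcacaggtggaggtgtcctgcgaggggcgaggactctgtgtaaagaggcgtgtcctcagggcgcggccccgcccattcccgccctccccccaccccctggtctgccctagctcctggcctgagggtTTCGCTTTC
Tnfrsf18, chr4:156026072-156026321, plus strand: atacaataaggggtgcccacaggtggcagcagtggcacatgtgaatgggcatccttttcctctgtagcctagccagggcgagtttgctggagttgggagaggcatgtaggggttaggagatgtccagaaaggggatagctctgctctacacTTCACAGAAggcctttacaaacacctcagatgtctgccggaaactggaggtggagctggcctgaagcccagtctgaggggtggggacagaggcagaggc
Tnfsf13b, chr8:10006607-10006636, plus strand: tacaaaaactGAAAGTGAAatgcggaaggc

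The match of Tnfrsf1b to the interferon core lies 9 bases before its start, that of Tnfsf13b 16 bases before its second start, and the GAS match of Tnfrsf18 99 bases before its start. Matches were also found in members that were not called, such as Tnfrsf1a and Tnfrsf25 for GAS and Tnfrsf14 and Tnfrsf4 for the interferon core. A match in these windows is a description of the letters, and binding was not measured.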

How the data were processed

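RNA was measured in 8 tumors, grouped by their titles, with 4 per group from different mice. The authors trimmed paired 150-base reads with Trimmomatic, aligned them with HISAT2 to mm10 (GRCm38) and counted them on genes with featureCounts. The deposited values are log2 CPM from limma-voom, with an offset of 0.5 reads and of 1 read in the library size. Base calls were made with bcl2fastq 2.17. Gene annotation, strand setting and treatment of reads with several matches are not given in the sources used here. Whole reads were recovered by inverting the transformation (100% within 0.01 of a whole number). They give the totals per tumor, which set the precision of low genes, and RPKM over the longest GENCODE transcript.

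Genes with a deposited value of at least 1 CPM in at least 4 tumors (13262) were fitted with limma 3.58.1 (lmFit, eBayes with trend) in R 4.3.3, without covariates, with Benjamini-Hochberg adjustment at 0.05. For single values, two-sided exact permutation tests over the 8 tumors were added, whose smallest p-value is 0.0286. The fit was tested on simulated data, where 193 of 198 genes changed 2-fold among 13266 were recovered, with 13 false calls of 206. The simulation gave all genes the same relative spread and changed few of them, whereas 39.8% of the real genes were called. Its rates therefore need not hold for these tumors. P-values measure the spread between tumors of 1 line each. Values in every tumor are given for called members with a log2 fold change of at least 1, for the most abundant members per length and for members whose groups do not overlap, and some others are added as context, having been chosen after their values were seen. The members and lists were chosen with earlier results of these data known. Alternatives were other filters, quantile normalization, re-centring, removal of chromosome medians, voom weights, other variance models, a pseudocount, a 2-fold threshold, the replicate number as a block and each tumor left out. A few symbols are not reported here.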

Additional observations from a re-analysis of the deposited data

How the results depend on the processing

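Of the 5 members called higher, 3 were called after removal of chromosome medians, 1 when the mean had to reach 3 log2 CPM, 2 without a filter, 3 with quantile normalization, 3 with a 2-fold threshold and 2 to 4 with 1 tumor left out, the lowest without scr-4. It was 3 without IL6KOs1-1 and 3 without scr-3. The number called lower was 5 throughout, except for 4 with the 2-fold threshold. The stricter filter moved the median log2 fold change of tested members to -0.39, as it drops the scarce members. Pathway list genes called higher numbered 3 with that filter, 2 with the 2-fold threshold and 3 to 5 with 1 tumor left out, the lowest without scr-3. Those called lower numbered 1 with the 2-fold threshold and 2 to 4 with 1 tumor left out, the lowest without IL6KOs1-3 or scr-3. Tnfrsf11b, Tnfsf9, Tnfrsf22 and Tnfrsf23 passed under every setting, Tnfsf13b under every setting but the stricter filter, which drops it, and Tnfrsf1b and Tnfrsf26 under all but the 2-fold threshold. Same-numbered tumors did not deviate together (correlations of -0.0593 to 0.057), and the replicate block gave 6 higher and 5 lower members by adding Tnfrsf10b. No called member changed direction under a setting that tested it, whereas the uncalled Tnfrsf14, Tnfrsf9 and Tnfsf11, whose fold changes lie near 0, changed sign under some (lowest values -0.22, -0.21 and -0.08). Low counts limit the 12 members below the filter.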
